A study of Mus musculus with 3 samples.

Results

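The genes described here are 32 mouse germline genes whose promoters are normally methylated in somatic cells, so that their methylation shows whether an existing mark was kept. They were listed by name, a choice made with earlier results of these data known, which limits their comparison with all genes. Every 200-bp bin of the deposited methylation table within 1 kb of either gene end was taken. This gave 64 gene ends of 41330 in all and 32 genes of 20665 protein-coding genes on chromosomes 1 to 19. For 29 of the 32, RefSeq's promoter table (assembly GRCm38.p6, also known as mm10) also gave the transcription start and strand, among 16457 starts in all. The start lay at a gene end in 27 of these. In Stag3 and Dmrtb1 it lay inside the annotated gene. Piwil2, Rnf17 and Dppa3 were measured at their gene ends only.

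Methylated DNA was pulled down with a methyl-CpG-binding domain polypeptide and sequenced (MBD-seq) in 3 libraries of organoids, which are crypt cultures grown in Matrigel. The organoids came from the first 2.5 cm of the colon of male mice aged about 40 days that were heterozygous for Braf+/LSL, an allele that makes BrafV600E once Cre recombinase has removed a stop cassette. In the control library, called EV and of the same Braf+/LSL genotype as far as the series' design tells, the organoids had received the lentiviral backbone without Cre; in the other two a lentivirus had delivered Cre. All had been cultured for 5 months. EV and one Braf library, called Braf full, were then kept for 3 weeks in full medium, with Wnt3a, R-Spondin, Noggin and EGF. The other, called Braf Base, spent those 3 weeks in Base medium, which lacks the stem-cell niche factors. Each group held 1 library, all 3 share the label stem BRAF3, and the number of mice or clones behind a library is not stated. Differences below therefore compare single libraries, without replicates and without p-values.

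Germ cells make meiotic chromosomes and defend their genome against retrotransposons with proteins that other cells do not need. In somatic cells many of the genes for these proteins carry DNA methylation over a CpG-rich promoter, laid down around implantation of the embryo and copied at each division by the maintenance methyltransferase Dnmt1. Most other CpG-rich promoters stay free of methylation. Repressors such as E2f6 and the Mga-Max complex are known to bind germline promoters through E2F-like and E-box motifs.

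The promoters below are part of the DNA that the pull-down reads at these genes. They are the 250 bases before the start, 5′ to 3′ on the transcribed strand, with each CpG in capitals. In each library the highest bin of Dazl and of Sycp1 lay 200 bp downstream of the start, outside the bases shown. Dazl, Sycp1 and Mael were strongly covered in every library. Piwil1 lost coverage and Rec8 gained it, and Tdrkh, with a similar number of CpGs to Dazl, was not covered.
Dazl: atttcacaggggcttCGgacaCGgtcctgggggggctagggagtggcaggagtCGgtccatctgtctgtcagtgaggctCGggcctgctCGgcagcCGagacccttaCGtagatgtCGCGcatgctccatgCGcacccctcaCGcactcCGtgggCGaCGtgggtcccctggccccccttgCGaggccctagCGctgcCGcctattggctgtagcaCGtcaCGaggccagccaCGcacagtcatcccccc
Sycp1: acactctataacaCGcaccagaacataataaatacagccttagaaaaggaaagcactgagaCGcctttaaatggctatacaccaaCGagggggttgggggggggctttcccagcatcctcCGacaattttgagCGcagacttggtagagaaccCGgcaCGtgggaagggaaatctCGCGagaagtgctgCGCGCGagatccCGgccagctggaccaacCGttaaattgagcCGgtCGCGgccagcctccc
Mael: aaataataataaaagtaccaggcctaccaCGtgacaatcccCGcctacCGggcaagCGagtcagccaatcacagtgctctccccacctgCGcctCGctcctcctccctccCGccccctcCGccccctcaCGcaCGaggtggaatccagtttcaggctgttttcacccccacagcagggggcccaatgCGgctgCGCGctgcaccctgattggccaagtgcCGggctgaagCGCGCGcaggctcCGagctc
Piwil1: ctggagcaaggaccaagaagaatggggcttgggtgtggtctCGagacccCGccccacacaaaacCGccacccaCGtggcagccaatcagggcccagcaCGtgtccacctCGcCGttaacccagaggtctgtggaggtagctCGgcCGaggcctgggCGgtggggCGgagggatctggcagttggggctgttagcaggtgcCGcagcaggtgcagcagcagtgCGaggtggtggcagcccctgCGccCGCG
Rec8: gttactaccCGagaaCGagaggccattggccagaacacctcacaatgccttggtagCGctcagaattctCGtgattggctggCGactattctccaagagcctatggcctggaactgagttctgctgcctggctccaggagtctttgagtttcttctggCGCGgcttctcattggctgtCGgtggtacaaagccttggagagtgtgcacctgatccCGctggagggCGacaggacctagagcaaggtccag
Tdrkh: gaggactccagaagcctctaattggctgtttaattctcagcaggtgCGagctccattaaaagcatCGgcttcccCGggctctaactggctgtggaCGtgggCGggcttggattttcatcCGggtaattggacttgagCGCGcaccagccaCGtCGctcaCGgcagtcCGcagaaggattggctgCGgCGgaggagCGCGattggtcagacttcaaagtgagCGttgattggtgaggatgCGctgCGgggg
These are RefSeq sequences of GRCm38.p6. Dazl lies at chr17:50293621-50293870 on the minus strand, Sycp1 at chr3:102936101-102936350 (minus), Mael at chr1:166238745-166238994 (minus), Piwil1 at chr5:128735996-128736245 (plus), Rec8 at chr14:55617916-55618165 (plus) and Tdrkh at chr3:94412994-94413243 (plus). In that order they hold 20, 17, 18, 16, 10 and 19 CpGs.

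The germline starts were methylated in EV and in both Braf libraries. Coverage below is the normalised number of read overlaps per 200-bp bin, averaged over the 11 bins within 1 kb of a start or end, and a window is called covered at 0.119 or more, which is 2 times the mean of all bins. In each of the 3 libraries 26 of the 29 starts were covered, and the same 26 in all. Of all starts, 10.1% were covered in EV, 16.3% in Braf full and 12.8% in Braf Base. The median germline start had a coverage of 1.51 in EV, 1.26 in Braf full and 1.41 in Braf Base, against 0.00456, 0.0579 and 0.00674 over all starts. Ranked among all starts of its own library, which no scaling factor can move, the median germline start stood at percentile 98.8 in EV, 97.9 in Braf full and 97.6 in Braf Base. The top 1% of starts held 13 germline starts in EV, 9 in Braf full and 8 in Braf Base. A lower rank need not mean lower coverage, since a rank also falls when other starts rise.

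**Figure D1:**
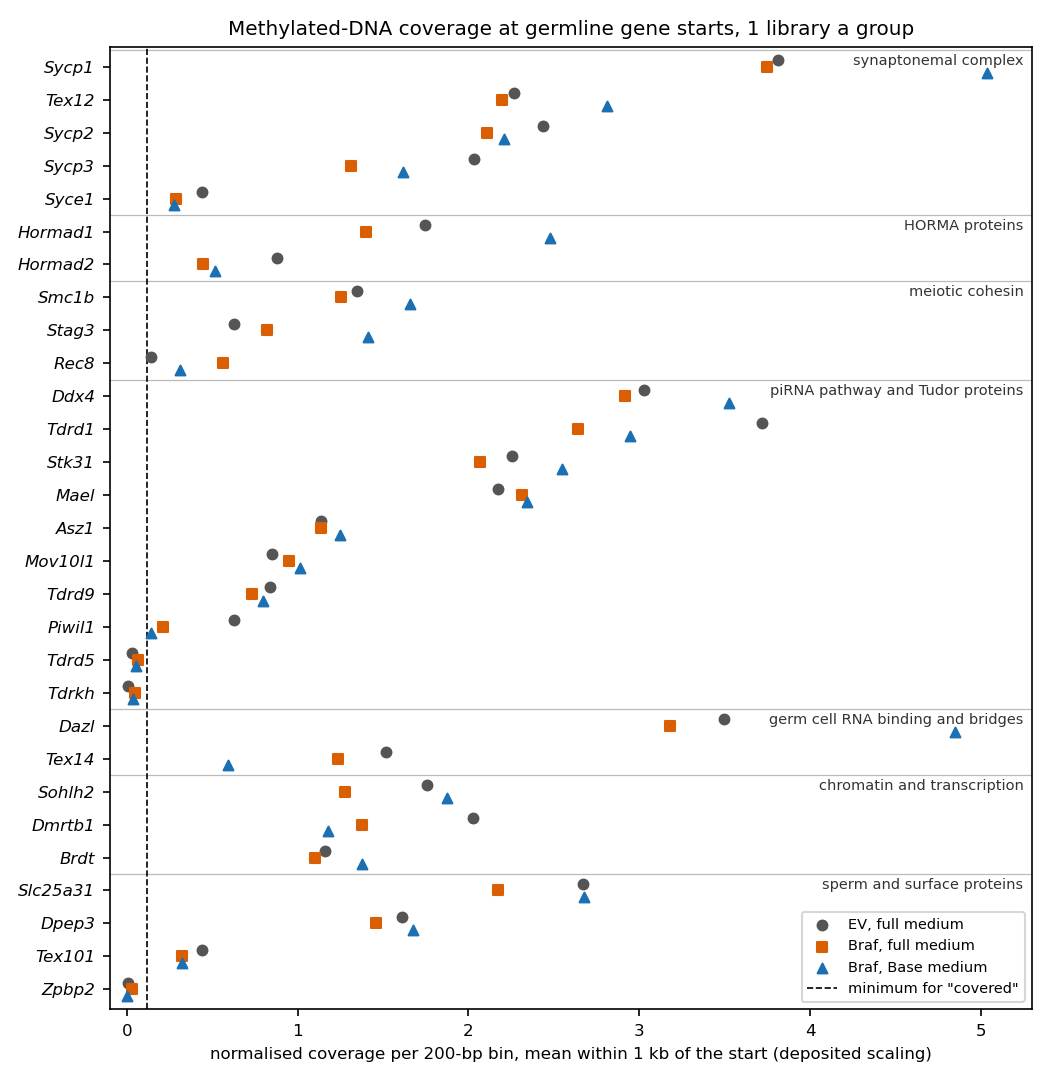
Normalised coverage within 1 kb of the start (x axis, per 200-bp bin, deposited scaling) of the 29 germline genes with an annotated start, grouped by role, with 1 point for each library. In each library 26 starts lie right of the dashed line at 0.119, and Tdrd5, Tdrkh and Zpbp2 lie left of it.

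Libraries differed in ways that touch these values. They held an estimated 5041726 reads in EV, 8648828 in Braf full and 5985362 in Braf Base. The Braf full library had a higher background: no read fell in 43.3% of its bins, against 87.2% in EV and 83.0% in Braf Base. Of the starts of 9 colon epithelium markers 1 was covered in each library, of 5 immune markers none, and of 6 fibroblast and smooth muscle markers 1, 3 and 3. Methylation does not measure expression, so these starts do not show which cells the cultures held.

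The genes of the synaptonemal complex, the protein zipper that holds paired chromosomes together in meiosis, had the highest median start coverage after the 2 RNA-binding and bridge genes. Sycp1, its transverse filament, had a coverage of 3.81 in EV, 3.75 in Braf full and 5.04 in Braf Base, and ranked 22, 28 and 25 among 16457 starts. Tex12, of the central element, whose window also meets Il18, had 2.27, 2.20 and 2.81 in the same order of libraries. Sycp2, of the lateral element, had 2.44, 2.11 and 2.21, and its partner Sycp3 had 2.04, 1.31 and 1.62. These 4 starts were high in all 3 libraries. Syce1, another central element gene, was the lowest of the group with 0.443, 0.285 and 0.276.

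Hormad1 and Hormad2, HORMA-domain proteins that monitor unpaired chromosome axes, were both covered. Hormad1 had 1.74 in EV, 1.40 in Braf full and 2.48 in Braf Base, highest in Base medium. Hormad2 had 0.881, 0.445 and 0.519, highest in EV; its log2 ratio of Braf full to EV, -0.90, fell short of the call at -1.

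The 3 genes of meiotic cohesin, the ring that holds sister chromatids in meiosis, were covered in all 3 libraries. Smc1b, whose window also holds the start region of Ribc2, had 1.35, 1.26 and 1.66. Stag3 had 0.630 in EV, 0.820 in Braf full and 1.41 in Braf Base. Rec8, the cleavable kleisin subunit, was close to the minimum in EV with 0.141 and had 0.561 and 0.313 in the Braf libraries.

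Of the genes of the piRNA pathway, which silences retrotransposons with small RNAs, and related Tudor-domain genes, 8 of 10 starts were covered in every library. Ddx4, the germ cell helicase Vasa, had 3.03 in EV, 2.92 in Braf full and 3.53 in Braf Base. Tdrd1, a Tudor scaffold, had 3.72, 2.64 and 2.94. Mael, a piRNA factor of the germ granule, had 2.17, 2.31 and 2.34. Stk31, a Tudor-domain gene, had 2.25, 2.07 and 2.55, and Asz1, a mitochondrial anchor of the pathway, 1.14, 1.14 and 1.25. The helicase genes Mov10l1 and Tdrd9 had 0.849, 0.949 and 1.01, and 0.840, 0.735 and 0.798. The window of Mov10l1 also meets Mlc1. Piwil1, a PIWI protein that carries piRNAs, had 0.630 in EV but 0.209 and 0.141 in the Braf libraries.

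The other starts of this group were not covered. Tdrkh, which tethers the pathway to mitochondria, had 0.00913, 0.0490 and 0.0370, and Tdrd5 had 0.0274, 0.0624 and 0.0505. In Braf full both lay near the median of all starts, 0.0579. Of the genes without an annotated start, Rnf17, a Tudor-domain gene, had 0.137, 0.294 and 0.404 at its low end, the end with the lower coordinate. The ends of Piwil2, another PIWI gene, reached at most 0.0183 in EV, 0.0757 in Braf full and 0.00674 in Braf Base.

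Dazl, an RNA-binding protein needed to form germ cells, had 3.50 in EV, 3.18 in Braf full and 4.85 in Braf Base. Tex14, which keeps the bridges between dividing germ cells open, had 1.51, 1.23 and 0.593. The transcription factor genes Sohlh2 and Dmrtb1 had 1.76, 1.28 and 1.87, and 2.03, 1.38 and 1.18. Brdt, the testis bromodomain protein, had 1.16, 1.10 and 1.38. Dppa3, also called Stella, which protects maternal methylation in the zygote, had 0.146, 0.156 and 0.0842 at its low end, around the minimum.

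Among genes of sperm and the germ cell surface, Slc25a31, an ADP/ATP carrier of the testis, had 2.67, 2.17 and 2.67. Dpep3, a testis dipeptidase, had 1.61, 1.46 and 1.68, and Tex101, a surface glycoprotein, 0.443, 0.321 and 0.320. Zpbp2, which sits in the acrosome of sperm, had 0.00913, 0.0312 and 0. A count of 0 in the Base medium library allows a coverage of up to 0.0251 in such a window (3 reads, counting error only).

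The signal sat at the start and not at the other end of the gene. Of the 27 genes that start at a gene end, 26 had more coverage there than at the other end in each library, the exception each time being Zpbp2. The median was 1.51 at the start end and 0 at the other end in EV, 1.26 and 0.0401 in Braf full, and 1.62 and 0 in Braf Base. None of the 27 other ends was covered in any library. The highest was Rec8 in EV and Braf full, with 0.110 and 0.0980, and Smc1b in Braf Base, with 0.0943. Over all gene ends 11.9%, 16.5% and 12.8% were covered.

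**Figure D2:**
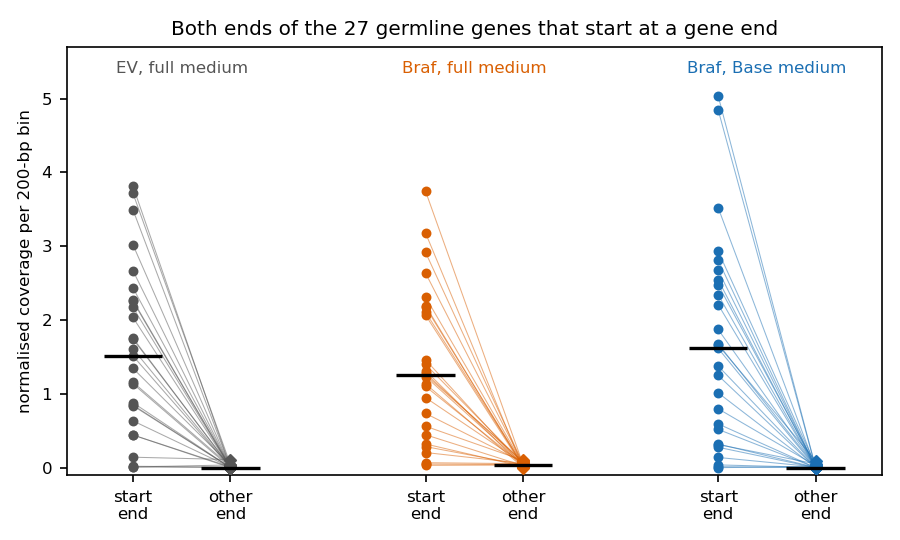
Normalised coverage per 200-bp bin (y axis) at the start end (circles) and the other end (diamonds) of 27 germline genes in each library, with a line for each gene and a black bar at the median. Start ends reach 3.81, 3.75 and 5.04, and no other end exceeds 0.110.

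Within the window the coverage formed 1 narrow peak. Averaged over the 29 starts, the bin that holds the start had 4.68 in EV, 4.15 in Braf full and 5.11 in Braf Base. Over all other starts the bin at the start averaged 0.121, 0.209 and 0.205. Of the 26 covered starts, 24 had their highest bin of the surrounding 5 kb on each side within 400 bp of the start in each library. The median covered start held 97.7% of the coverage of those 5 kb within 1 kb in EV, 84.7% in Braf full and 97.7% in Braf Base. The lower share in Braf full goes with that library's higher background, whose part was not tested.

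**Figure D3:**
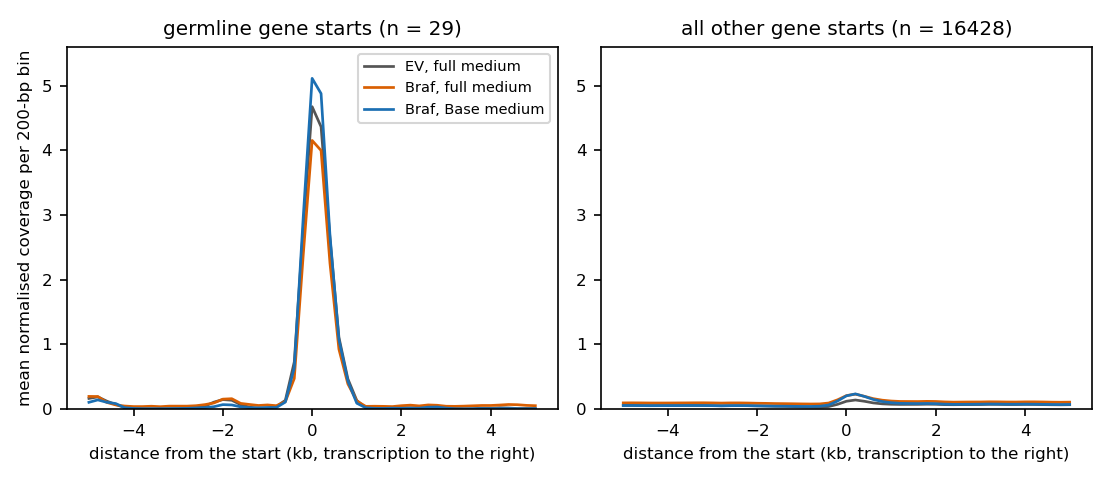
Mean normalised coverage per 200-bp bin (y axis) against distance from the start, with transcription to the right, for the 29 germline starts (left) and 16428 other starts (right), 1 line for each library. The germline lines peak at the start at 4.68, 4.15 and 5.11, and the lines of the other starts reach at most 0.140, 0.231 and 0.235.

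Most of the covered germline starts lay in promoters of high or intermediate CpG content. Promoters were divided by the CpGs in the 300 bases around the start (250 before, 50 after) into high (observed over expected CpG of at least 0.75 and at least 55% G and C), low (observed over expected under 0.48) and intermediate. Of the 12 germline promoters of the high class 9 were covered in all 3 libraries, and of all 5144 promoters of that class 6.73%. Of the 14 intermediate germline promoters 14 were covered in all 3, against 11.4% of 4324. The 3 low ones, Sycp2, Dpep3 and Tdrd9, were covered, against 6.74% of 6989. The uncovered Tdrd5, Tdrkh and Zpbp2 were all in the high class, with 48, 25 and 26 CpGs in 300 bases. Dazl had 28, Sycp1 21 and Ddx4 38, so the number of CpGs in these 300 bases did not separate covered from uncovered members. Coverage was taken over 1 kb to each side, where CpGs were not counted. Dmrtb1, for example, had its highest bin 600 bp downstream of the start in each library. Across the 29 members the Spearman correlation of CpG number with coverage was 0.0390 in EV, 0.109 in Braf full and 0.220 in Braf Base, a description of points that share a library.

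The E-box CACGTG, which reads the same on both strands, was present in 14 of 29 germline promoters (48.3%) and in 7.97% of all 16457. All 14 were covered in every library, among them Sycp1, Mael, Ddx4, Hormad1, Tex12 and Piwil1. Of all 29 germline starts 26 were, with or without the E-box, and a link of the motif with coverage was not tested. The E2F-like hexamer GCGGGA, searched on both strands, was present in 13 (44.8%), against 26.4% of all promoters. Within the high CpG class it was in 9 of 12 germline promoters and 49.7% of all, and the E-box in 7 of 12 and 12.2% of all. Tdrd5 and Zpbp2, which were not covered, held GCGGGA. Both motifs, whose matches may overlap at an edge, stood together in 8 germline promoters (27.6%), against 2.82% of all. A match is a description of the letters and not a bound site.

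Between EV and Braf full, which differ in the activation of BrafV600E, most of these starts differed by less than the 2-fold limit for a call under the deposited scaling. A window was called gained at a log2 ratio of 1 or more and lost at -1 or less, with a pseudocount of 0.0597 (the mean over all bins of the 3 libraries) added to both sides, if the higher library was covered; log2 ratios are on this scale, which understates the change of low windows, and folds are plain ratios of coverage. Of the 32 genes 1 gained, Rec8, and 1 lost, Piwil1, where 8.55% of all genes gained and 1.13% lost. Counted at the 29 annotated starts the calls were the same 2 genes, where 6.85% of all starts gained and 0.753% lost. The median log2 ratio of the 29 starts was -0.13, against 0.74 over all starts, most of which hold only background. Among starts whose mean over the 3 libraries reached 0.119, it was -0.16 for 26 germline starts and 0.37 for 2211 others. Some of these others reach that mean through 1 high library only, so the sets are not matched. Of the 26 covered starts 22 were lower in Braf full and 4 higher, with a median fold of 0.891, or 0.547 with the libraries set to equal totals. For 21 of the 26 the whole 95% interval of the fold (exact binomial on estimated reads, counting error of 2 libraries only) lay between 0.5 and 2. The interval lay wholly below 1 for 7 of the 26 and wholly above 1 for 1, and it held 1 for 18. Among those that held 1, Sycp1 had a fold of 0.982 (interval 0.844 to 1.15), Ddx4 0.964 (0.811 to 1.15) and Dazl 0.910 (0.773 to 1.07). Among those below 1, Tdrd1 had 0.710 (0.599 to 0.840) and Sycp3 0.646 (0.510 to 0.819).

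Piwil1 was 0.332-fold at its start at position 128736246 of chromosome 5 (interval 0.181 to 0.551). Its highest bin went from 2.41 in EV to 0.686, both in the bin 200 bp upstream of the start. Local background was taken from bins with at most 2 overlaps, 100 kb to 2 Mb away. It was divided by the same library's background over the whole genome. Around Piwil1 the log2 ratio of these relative values, Braf full to EV, was -0.02. This local background ratio does not compare the background levels themselves, which over the genome were higher in Braf full. Rec8, with its start at position 55618166 of chromosome 14, was 3.97-fold higher (2.17 to 8.47), and its highest bin went from 0.502 to 2.16. The local log2 background ratio there was -0.04. The EV value rests on an estimated 12.5 reads and the Braf full value on 52.1. In bulk DNA a promoter methylated in some of the cells and one partly methylated in all cannot be told apart.

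**Figure D4:**
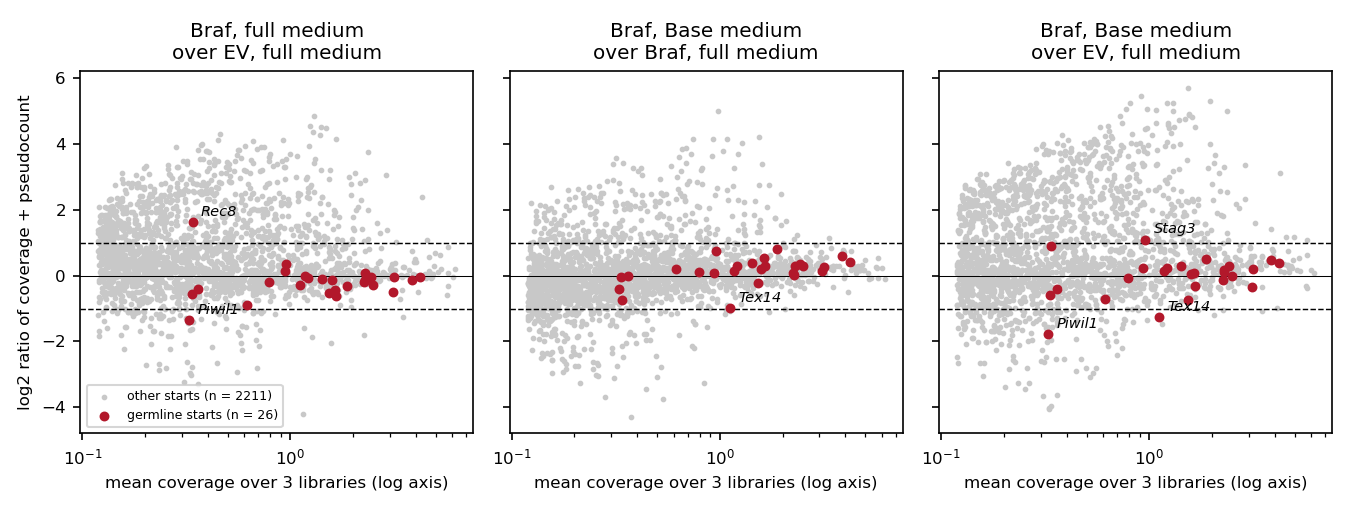
Log2 ratio of coverage with the pseudocount added (y axis) against mean coverage of the 3 libraries (x axis, log scale) for starts whose mean reached 0.119: 26 germline starts in red and 2211 others in grey (some pass through 1 high library only, so the clouds are not matched), dashed lines at the thresholds for a call. Germline starts lie between the dashed lines except Rec8 and Piwil1 in the first panel and Stag3, Tex14 and Piwil1 in the third.

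The comparison of Braf Base with Braf full concerns growth without niche factors, and none of the 32 genes gained or lost with the deposited scaling; of all genes 2.02% gained and 5.4% lost. At the annotated starts the count was again 0 in each direction, where 2.03% of all starts gained and 3.59% lost. No test could be run with 1 library a group. The median log2 ratio of the 29 starts was 0.15, against -0.67 over all starts, most of which hold only background. Among starts whose mean over the 3 libraries reached 0.119, it was 0.19 for 26 germline starts and 0.04 for 2211 others. Of the 26 covered starts 20 were higher in Base medium and 6 lower, with a median fold of 1.16, or 2.15 with equal totals. Hormad1 was highest with 1.77-fold (1.44 to 2.20) and Dazl had 1.52-fold (1.32 to 1.76). Around Hormad1 and Sycp1, both on chromosome 3, the local background relative to the genome was also higher in Base medium, by 0.60 and 0.53 on the log2 scale. With it divided out, a check chosen after seeing the data, the log2 ratios of Hormad1 and Sycp1 went from 0.80 and 0.42 to 0.22 and -0.11. Around Dazl this local background log2 ratio was -0.02. Tex14 was 2.08-fold lower (1.54 to 2.85), the largest fall, a log2 ratio of -0.99 that stopped just short of a call.

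The scaling of the Braf full library changes both sets of counts. With the libraries set to equal totals, 1 gene gained and 6 lost between EV and Braf full (Sycp3, Syce1, Hormad2, Piwil1, Tdrd1 and Sohlh2), and 14 gained and 0 lost between Braf full and Base medium, among them Sycp1, Dazl and Ddx4. Local background, relative to each library's own genome-wide background, moved with some of these. Around Tdrd1 the log2 ratio of this relative background, Braf full to EV, was -0.77. The deposited log2 ratio of Tdrd1, -0.48, was 0.27 with that divided out. Around Hormad2 the local background ratio was -0.37, and the log2 ratio of Hormad2 went from -0.90 to -0.56. All genes moved as well: 3.25% gained and 3.91% lost in the first comparison, and 9.01% gained and 0.755% lost in the second. Equal totals lower the Braf full library by 0.70 on the log2 scale, and only 43.3% of that library's bins were free of reads, as given above. The part of background in this shift was not tested. Under the deposited scaling and equal totals, 22 and 25 of 26 covered starts were lower in Braf full than in EV. In Braf Base 20 and 25 were higher than in Braf full. Equal totals lower Braf full and raise Braf Base, so both counts could only stay or rise, and their agreement shows nothing further. With the median of covered gene ends made equal, 22 of 26 were lower in Braf full than in EV. In that setting 18 were higher and 8 lower in Braf Base than in Braf full.

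Braf Base against EV is the comparison of the libraries with little background. Here 1 gene gained, Rnf17, and 2 lost, Piwil1 and Tex14, where 6.19% of all genes gained and 2.61% lost; the comparison shares a library with each of the others. The median log2 ratio of the 29 starts was 0.11, against 0 over all starts, most of which hold few or no reads. Among starts whose mean over the 3 libraries reached 0.119, the order was the other way, with 0.10 for 26 germline starts and 0.37 for 2211 others. Of the 26 covered starts 16 were higher and 10 lower. This direction turned with the scaling: 18 were higher with equal totals, but 11 were higher and 15 lower when the median of covered gene ends was made equal. For 18 the whole interval lay between 0.5 and 2. It lay wholly above 1 for 6 starts and wholly below 1 for 6, and it held 1 for 14, among them the next 3. Stk31 had a fold of 1.13 (0.941 to 1.36), Asz1 1.10 (0.852 to 1.44) and Sycp2 0.907 (0.753 to 1.09). At Sohlh2 the local background relative to the genome was higher in Braf Base by 0.53 on the log2 scale. The log2 ratio of Sohlh2, 0.09, was -0.42 with that divided out.

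Piwil1 was 0.225-fold of EV in Base medium (0.122 to 0.391). Tex14, with its start at position 87405065 of chromosome 11, was 0.391-fold (0.289 to 0.524). Its highest bin went from 5.82 in EV and 4.61 in Braf full to 2.19, while the local background log2 ratio of Base medium to EV was 0.13. Its window also holds an end of Rad51c, a DNA repair gene, and the coverage cannot be assigned to one of the 2 genes. The bin 200 bp downstream of the start of Tex14 had 3.76 in EV and 2.19 in Braf Base, and the bin 400 bp downstream 1.15 and 1.11. In Braf full these 2 bins of Tex14 had 3.77 and 1.62, higher than in Braf Base.

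Rnf17 went from 0.137 in EV to 0.404 in Braf Base at its low end, at position 56402650 of chromosome 14 (2.95-fold, 1.54 to 6.10). Stag3 was 2.25-fold higher (1.63 to 3.06), with a log2 ratio of 1.10 and its highest bin near the start at 2.31, 3.43 and 5.93 in EV, Braf full and Braf Base. It was not among the gained genes because its start at position 138280509 of chromosome 5 lies inside the annotated gene and not at either end. The start window of Stag3 also meets Gpc2, and the coverage cannot be assigned to one of the 2 genes. Counted at the annotated starts, 1 of the 29 genes gained, Stag3, and 2 lost, Piwil1 and Tex14, where 5.57% and 1.43% of all starts did.

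**Figure D5:**
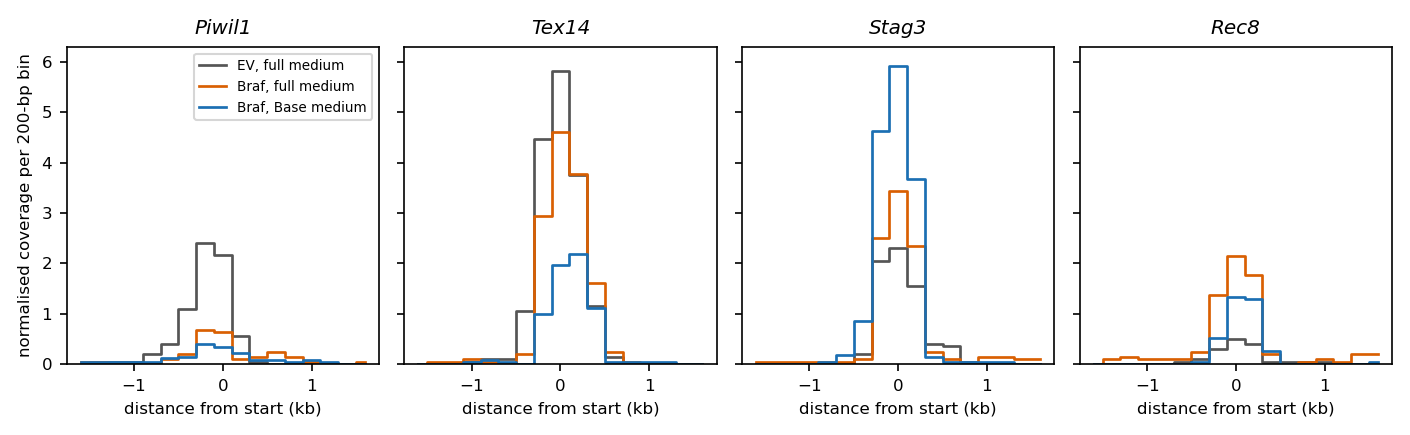
Normalised coverage of single 200-bp bins (y axis) within 1.6 kb of the start of Piwil1, Tex14, Stag3 and Rec8, 1 line for each library. At Piwil1 the EV line is highest with 2.41, at Tex14 the Base medium line is lowest with 2.19, at Stag3 it is highest with 5.93, and at Rec8 the Braf full line is highest with 2.16.

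The order of the members by level changed little between libraries. Across the 29 starts the Spearman correlation of coverage was 0.970 between EV and Braf full, 0.963 between the Braf libraries and 0.937 between EV and Braf Base, over points that share library and base composition. Of the 26 covered germline starts 24 stayed within a log2 ratio of 1 in the first comparison, 26 in the second and 23 in the third. Of 2211 other starts with a mean coverage of at least 0.119, 64.4%, 78.4% and 56.4% did. Some of these others reach that mean through 1 high library only, so the sets are not matched. The germline counts hold for the deposited scaling: with equal totals they were 18, 12 and 22 of the 26.

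A second list held other germline genes: 34 of meiosis, 26 of retrotransposon defence and germ cell fate, 14 of oocytes and 26 of spermatids and sperm. Of the 73 with an annotated start, 44 were covered in EV, 42 in Braf full and 40 in Braf Base. Of the 95 measured at their ends, 9 gained and 1 lost from EV to Braf full, where 8.55% of all genes gained and 1.13% lost. From there to Base medium 1 gained and 5 lost, against 2.02% and 5.4% of all genes. From EV to Braf Base 6 gained and 9 lost, against 6.19% and 2.61% of all genes. Apart from the 9 lost from EV to Braf Base, these counts were near the shares of all genes. Terb1, which attaches telomeres to the nuclear envelope in meiosis, had 0.0365 in EV, 1.42 in Braf full and 2.23 in Braf Base at its start end. Dmc1, the meiotic recombinase, had 0.306, 1.85 and 2.11, and Hfm1, a crossover helicase, 0.228, 1.03 and 1.04. These 3 starts were higher in both Braf libraries than in EV, where Dmc1 and Hfm1 were already covered and Terb1 was not.

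Hspa1l, a heat shock gene of spermatids, had 0.507, 2.72 and 3.32. Syce2, a central element gene, had 0.187 and 0.717 and then 0.0303 in Base medium. Cntd1, a crossover factor, had 0.926, 1.02 and 0.330, and Prm2, a protamine of sperm chromatin, 0.575, 0.499 and 0.199, both lower in Base medium. Pld6, an enzyme of piRNA production, had 0.0183, 0.0267 and 0.148. Mlh3, of mismatch repair and crossovers, had 1.01, 0.0624 and 0.0303, and Rec114, of meiotic break formation, 0.00913, 0.0846 and 0.209 at the end without its start, while its start was among the lost starts. The calls at Gapdhs and Oog1, with 0.134 and 0.120 in Braf full, lay near the minimum of 0.119.

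Imprinted genes, which are methylated on 1 parental copy, and housekeeping genes give the scale. Of 21 imprinted starts 15 were covered in EV, 16 in Braf full and 15 in Braf Base, with medians of 0.748, 0.940 and 1.87. Of 21 housekeeping starts 1, 2 and 1 were covered, with medians of 0.00913, 0.0624 and 0.0135. The germline medians of 1.51, 1.26 and 1.41 thus lay above those of the imprinted starts in EV and Braf full and below in Braf Base, a comparison of medians without a test.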

How the data were processed

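MBD-seq libraries were made from DNA sheared to fragments and read as single ends, per the labels' protocols; per the submitters' processing notes Bowtie2 (no version) and the mm10 build were used, with the binning and scaling not given in the sources used here. Deposited values are on a log2 scale, 1 for each of 12313737 bins of 200 bp. Raising 2 to the deposited log2 value gave whole multiples of a library's own step above 0.0153 (largest deviation 3.52e-12): 0.0502 for EV, 0.0490 for Braf full and 0.0370 for Braf Base. Whole numbers were taken as read overlaps, and overlaps times the step as coverage. Totals were 12530155, 20914446 and 14850571 overlaps; reads were estimated at 2.49, 2.42 and 2.48 overlaps each. What the authors scaled to is unknown, as is the sequencing depth before binning; intervals cover counting error only.

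Windows held the 11 bins that meet a position 1 kb to each side. Of the 64 gene-end windows of the members 10 also met another protein-coding gene. Where the promoter table gave several starts the outermost was used. Motifs and CpGs were counted in 300 bases. Analyses used Python 3.11.15, numpy 2.4.6, pandas 2.3.3 and scipy 1.17.1. The calls were tested on simulated data for Braf Base against EV only, with counting error alone and changes larger than 2-fold. That simulation did not cover changes near 2-fold or the background of Braf full. The members and lists were chosen with earlier results of these data known. Values in every library were given for each called member, for the highest and lowest start of each role group and for a short set fixed by name, and for at most 6 called genes a comparison of the other germline list; the remaining members were added to account for all 32. Alternatives covered scaling, background, pseudocount, minimum, window, ends and fold. The division by local background was chosen after seeing the data.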

Additional observations from a re-analysis of the deposited data

How the results depend on the processing

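With 1 library a group no replicate could be left out. No paired analysis was possible because each group holds 1 library. In all 123 recomputed counts and levels, 94 stayed within their limits and 29 moved; of 384 values of single members 57 moved and 0 changed sign while called. Percentages in brackets below are the shares of all genes called in the same setting. Of the members, lost genes between EV and Braf full numbered 6 with equal totals (3.91%) and 2 with local background subtracted (2.41%). They numbered 0 with a pseudocount 4 times as large (0.319%), 2 with a window of 500 bp (1.48%) and 3 at 1.5-fold (2.86%), instead of 1 (1.13%). Gained genes there numbered 2 with a pseudocount of 0.25 times (9.86%), 6 with no minimum (36.9%) and 2 at 1.5-fold (11.5%), instead of 1 (8.55%). With the local background ratio divided out, which was done for the members only, they numbered 2. Between the Braf libraries, in place of 0 (2.02%), gained genes numbered 14 with equal totals (9.01%) and 2 at 1.5-fold (3.9%). Lost genes there, in place of 0 (5.4%), numbered 3 with no minimum (31.5%) and 2 at 1.5-fold (9.04%). They numbered 1 with an equal median of covered ends (4.45%), a pseudocount of 0.25 times (7.13%), a window of 500 bp (9.21%) or the local background ratio divided out. The 1 was Tex14 each time. Between EV and Braf Base, gained genes numbered 0 with a pseudocount of 4 times (3.81%), instead of 1 (6.19%). They numbered 2, the added gene being Rec8, with equal totals (7.12%), a pseudocount of 0.25 times (6.81%), a window of 500 bp (5.98%) or at 1.5-fold (8.06%). The causes were not tested. Median start coverage was 2.43, 2.07 and 2.54 with a window of 500 bp and 0.849, 0.700 and 0.764 with one of 2 kb, and 0.771 in Braf full with equal totals. Counts of all genes depended on the minimum too: without one, 36.9% of genes gained from EV to Braf full and 31.5% lost from there to Braf Base. A window with no read allows a coverage of 0.0340 in EV and 0.0323 in Braf full.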
